A study of Mus musculus with 9 samples.

Results

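Ribosome biogenesis factors are the proteins that transcribe, cut, modify and fold ribosomal RNA and build it into the 2 ribosomal subunits. They were followed here in 3 cell populations sorted from the mouse colon epithelium. Members were chosen by name, not by value, though earlier results of these data were known. They are genes whose symbol is Utp, Nop or Rrp with a number, the Pol I subunits Polr1a to Polr1e, Imp3 and Imp4, and a set of named nucleolar genes such as Fbl, Ncl, Npm1, Gnl3 and Dkc1. The rule found 43 of the 24421 gene symbols in the table. All 43 had at least 1 TPM (transcripts per 1000000) in at least 3 libraries and were tested. By role, 5 are Pol I subunits, 17 belong to the UTP and small-subunit processome factors, 8 are snoRNP proteins, 11 are large-subunit assembly factors and 2 are nucleolar chaperones.

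As background, ribosomal RNA is made in the nucleolus by RNA polymerase I (Pol I) as 1 long precursor. Small nucleolar ribonucleoproteins (snoRNPs) guide its chemical modification, the small-subunit processome folds and cuts the part that becomes the small subunit, and a separate set of assembly factors builds the large subunit. Rapidly dividing cells need many ribosomes, and in the intestine such cells lie in the lower crypt. Genes of this pathway are known targets of the transcription factor Myc.

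All animals were labelled as adult female C57BL/6J mice, and the labels name no treatment, transgene or altered allele. Goblet-enriched cells came from the bottom of the crypt and carried Epcam, Cd44 and Kit on their surface. Enterocyte-enriched cells came from the top of the crypt and carried Epcam and high Cd66a but no Cd44. Lgr5-enriched cells came from the crypt bottom and carried Epcam and Cd44 but no Kit. Each population had 3 libraries of polyadenylated RNA, and the series text assigns the replicates to 3 independent mice. The gates enrich for a cell type and do not isolate it.

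The libraries held at least 11.2 to 26.8 M reads in genes (M, times 1000000), and the fewest reads behind any member value were 44 (Rrp15 in the library labelled enterocyte-enriched replicate 1). Sorting markers fitted the labels in part. Summed goblet markers were at 45634 to 62390 TPM in goblet-enriched, 14529 to 22782 TPM in enterocyte-enriched and 1502 to 1666 TPM in Lgr5-enriched libraries, so the enterocyte gate also held abundant goblet transcripts. Of the 9 goblet markers, limma called 5 higher and 2 lower in goblet-enriched than in enterocyte-enriched cells. Zg16 was at 120 to 565 TPM in goblet-enriched and 3679 to 7864 TPM in enterocyte-enriched libraries, and Tff3 at 1018 to 1172 and 1414 to 2688 TPM. Fcgbp and Clca1 overlapped between these 2 populations. Summed colonocyte markers were at 552 to 1034, 5314 to 9102 and 199 to 300 TPM in the same order of populations. Most of the goblet-enriched sum was Guca2a, at 541 to 995 TPM. In goblet-enriched against Lgr5-enriched cells, 1 of the 8 colonocyte markers was called higher and 0 lower. The fitted log2 fold change lay below 0 for 7 of them, as it did for 68.7% of all tested genes. Summed stem cell markers were at 100 to 169, 31.7 to 52.2 and 419 to 502 TPM. Lgr5 itself was at 1.00 to 7.72, 0 to 0.333 and 31.4 to 44.1 TPM. The stem cell marker Olfm4 stayed at or below 3.52 TPM everywhere and was at 0 in all 3 enterocyte-enriched libraries. Summed enteroendocrine markers were at 12.8 to 78.2, 145 to 236 and 155 to 295 TPM, and summed tuft cell markers at 7.94 to 48.3, 2.61 to 5.57 and 1.93 to 4.66 TPM. Summed leukocyte markers were at 12.4 to 24.6, 19.8 to 247 and 13.9 to 25.2 TPM. Most of the enterocyte-enriched leukocyte sum was Lyz2, at 232, 133 and 12.9 TPM in replicates 1 to 3. In these libraries Ptprc, Cd3e and Cd79a reached at most 0.153, 0.202 and 0.314 TPM, and Itgam and Cd68 overlapped between all populations. Summed stromal and endothelial markers were at 2.04 to 4.49, 2.64 to 4.26 and 2.78 to 5.40 TPM.

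One library went against its label. In the library labelled enterocyte-enriched replicate 1, the female transcript Xist stood at 0.128 TPM while the other 8 libraries held 110 to 204 TPM, and the summed Y-linked transcripts of Ddx3y, Kdm5d, Uty and Eif2s3y were at 139 TPM, against at most 0.325 TPM elsewhere. It also had the lowest value of its population for 36 of the 43 members, so counts are given with and without it. Lgr5-enriched replicate 1 stood apart as well: Rn45s, the ribosomal RNA precursor, was at 49046 TPM there and at 2356 to 6009 TPM in the others, and this library was the highest of the 9 for 24 members.

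Ribosome biogenesis transcripts were lower in both goblet-enriched and enterocyte-enriched cells than in Lgr5-enriched cells, and lowest at the top of the crypt. Summed over the 43 members, goblet-enriched libraries held 2937, 2843 and 2731 TPM, enterocyte-enriched libraries 1396, 1918 and 2048 TPM, and Lgr5-enriched libraries 4762, 3906 and 4272 TPM, for replicates 1 to 3. The 3 ranges did not overlap. The means were 2837 ± 103 TPM in goblet-enriched, 1787 ± 345 TPM in enterocyte-enriched and 4313 ± 430 TPM in Lgr5-enriched cells (SD, n = 3 each). Npm1 alone carried a large part of these sums, and without it they averaged 2374 ± 54.9, 1556 ± 288 and 3434 ± 233 TPM in the same order. In bulk samples, fewer cells of a type and less RNA per cell cannot be told apart.

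**Figure D1:**
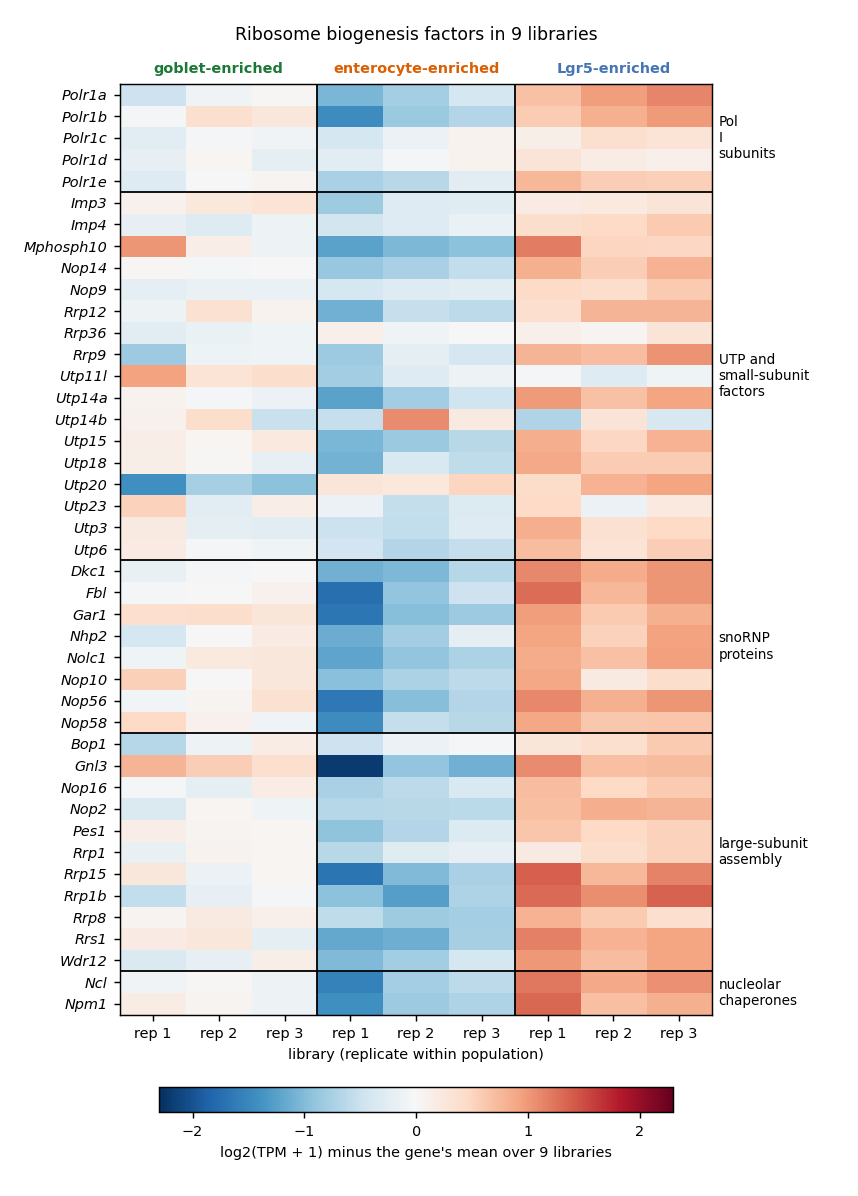
Level of each of the 43 members (rows, grouped by role) in each of the 9 libraries (columns), as log2(TPM + 1) minus the gene's mean over the 9 libraries. Most rows are palest in goblet-enriched, blue (low) in enterocyte-enriched and red (high) in Lgr5-enriched libraries, while Utp20 is low in goblet-enriched libraries and Utp11l is high there.

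Fold changes are from limma on log2(TPM + 1). Calls needed an adjusted p (Benjamini-Hochberg, over all 12888 tested genes) below 0.05. In goblet-enriched against Lgr5-enriched cells, 26 of 43 members fell (60.5%), against 23.6% of all tested genes. Only Utp11l rose (2.33% of members, against 10.7% of all tested genes), and 16 members were not called, which does not show that they were unchanged. The median log2 fold change was -0.64 over the members and -0.26 over all tested genes. Under median-of-ratios scaling, 15 members and 12.0% of all tested genes fell while 14.4% of all tested genes rose, and under quantile normalization 19 members and 15.1% of all tested genes fell while 14.6% rose. Single libraries also moved this count and that of all tested genes. Without goblet-enriched replicate 1, 2 or 3, 20, 17 and 22 members fell, with 21%, 16.2% and 17.6% of all tested genes. Without the library labelled enterocyte-enriched replicate 1, 34 members and 25% of all tested genes fell. Without Lgr5-enriched replicate 1, 2 or 3, 17, 24 and 15 members fell, with 22.1%, 16.9% and 12.2% of all tested genes. With a replicate block in the fit, 33 members and 35.4% of all tested genes fell.

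In enterocyte-enriched against Lgr5-enriched cells, 37 of 43 members fell (86.0%), against 37.6% of all tested genes. By limma, 0 members rose, against 12.0% of all tested genes, and none was higher at an unadjusted p below 0.05. The median log2 fold change was -1.39 over the members and -0.35 over all tested genes. Without the library labelled enterocyte-enriched replicate 1, 35 members fell, against 31.5% of all tested genes, and the calls of Polr1c and Bop1 were lost. Without Lgr5-enriched replicate 1, 37 fell, against 36.2% of all tested genes. Other scalings moved the count over all genes more than that of the members: 34 members and 19.6% of all tested genes fell under median-of-ratios scaling (23.5% rose), and 35 members and 22.4% of all tested genes fell under quantile normalization (18.8% rose).

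In goblet-enriched against enterocyte-enriched cells, 28 members were higher (65.1%), against 28.2% of all tested genes. Utp20 was the only member called lower (2.33%, against 15.9% of all tested genes), and 14 members were not called. The median log2 fold change was 0.71 over the members and 0.20 over all tested genes. Without the library labelled enterocyte-enriched replicate 1, 24 members were higher, against 22% of all tested genes. The calls of Nop16, Rrp1b, Utp18 and Wdr12 were then lost. Under median-of-ratios scaling 23 members were higher, with 19.9% of all tested genes higher and 21.3% lower, and under quantile normalization 23 members were higher, with 22.4% of all tested genes higher and 18.5% lower. The 3 comparisons share libraries and are not independent of each other.

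**Figure D2:**
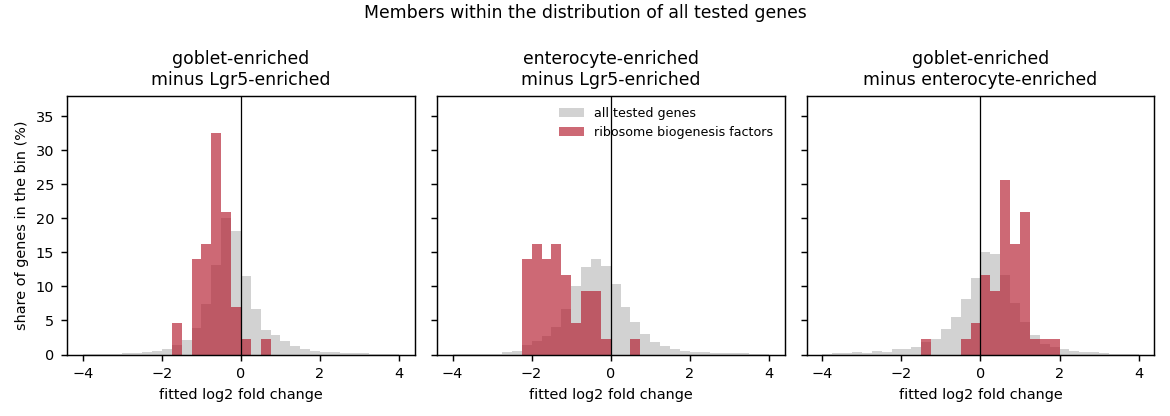
Distribution of fitted log2 fold changes (horizontal axis) over the 43 members (red) and all 12888 tested genes (grey), as the share of genes per bin, for each comparison. The members lie to the left of all genes in both comparisons with Lgr5-enriched cells, with medians of -0.64 and -1.39, and to the right in goblet-enriched minus enterocyte-enriched, with a median of 0.71.

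The order of the population means was alike for most members. For 38 of 43 (88.4%) the goblet-enriched mean lay above the enterocyte-enriched mean and below the Lgr5-enriched mean, an order that 37.8% of all tested genes had. The order differed for Polr1d, Rrp36 and Utp20 (6.98%, against 14.4% of all tested genes), with the lowest mean in goblet-enriched and the highest in Lgr5-enriched cells. Utp11l had its highest mean in goblet-enriched cells, and Utp14b had its highest in enterocyte-enriched cells. By calls, 18 members changed in all 3 comparisons in the common direction: Nop14, Utp14a, Utp15, Utp18, Utp6, Dkc1, Fbl, Nolc1, Nop56, Nop16, Nop2, Rrp15, Rrp1b, Rrp8, Rrs1, Wdr12, Ncl and Npm1. Of these 18, 7 lost none of their calls under the alternatives run (Nop14, Utp14a, Dkc1, Nop2, Rrp15, Rrs1 and Ncl), and 11 lost at least 1. Another 9 were called only in the 2 comparisons with enterocyte-enriched cells (Polr1b, Imp3, Mphosph10, Rrp12, Gar1, Nop10, Nop58, Gnl3 and Pes1). A further 7 were called in both comparisons with Lgr5-enriched cells but not between goblet-enriched and enterocyte-enriched cells (Polr1a, Polr1e, Imp4, Nop9, Rrp9, Utp3 and Nhp2). Such a call in 1 comparison and not in another does not show that the changes differ. The share of all tested genes with each of these call patterns was not counted, so these 3 counts have no background to be read against.

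Without any model, all 3 goblet-enriched libraries lay below all 3 Lgr5-enriched libraries for 36 members, against 33.9% of all tested genes, and above them for Utp11l alone, against 14.1%. All 3 enterocyte-enriched libraries lay below all 3 Lgr5-enriched libraries for 38 members, against 45.6% of all tested genes, and above them for none, against 16.2%. All 3 goblet-enriched libraries lay above all 3 enterocyte-enriched libraries for 31 members, against 36.0% of all tested genes, and below them for Utp20 alone, against 20.4%.

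**Figure D3:**
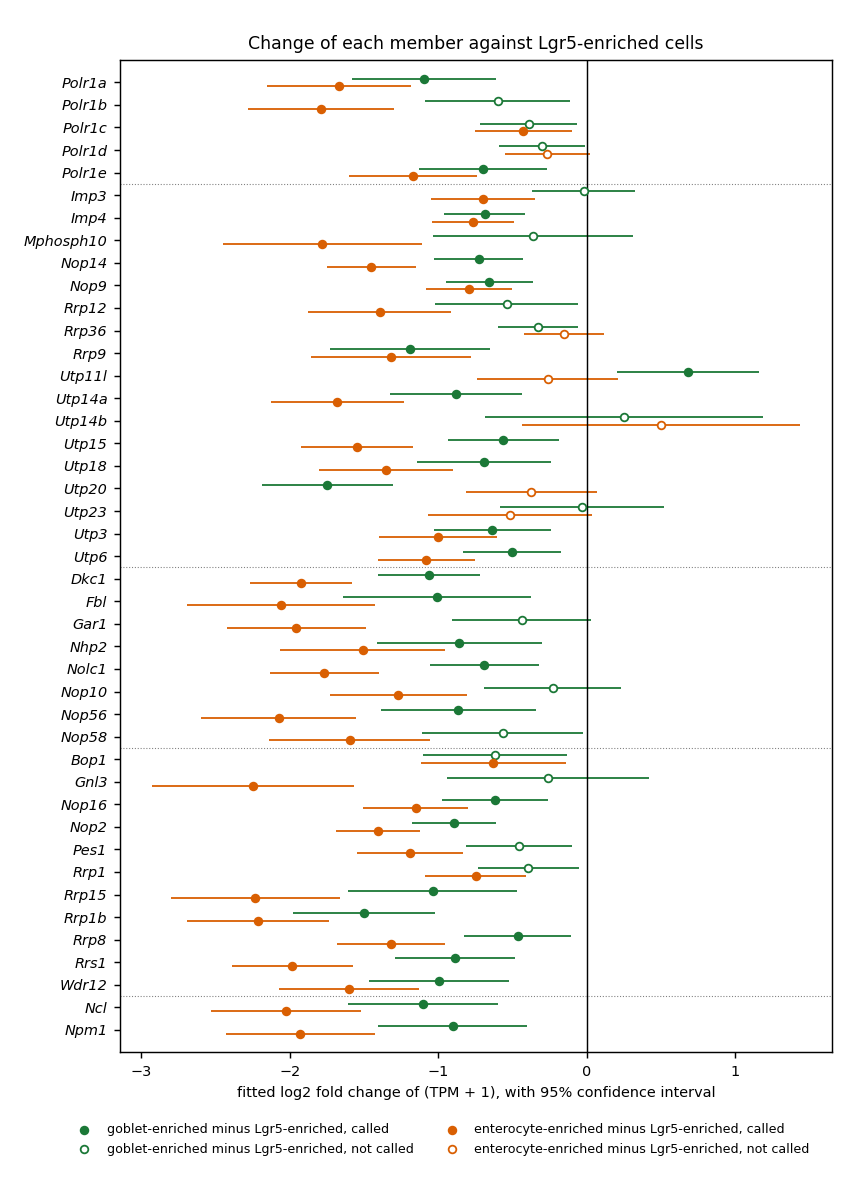
Fitted log2 fold change of each member with its 95% confidence interval, for goblet-enriched minus Lgr5-enriched (green) and enterocyte-enriched minus Lgr5-enriched (orange). Filled points were called; the orange point lies left of the green one for most members, with Utp20 as the widest exception (-1.75 for goblet-enriched and -0.37 for enterocyte-enriched cells).

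The promoters of the members were read from RefSeq (mm10), as the 250 bases before and 50 bases after each gene's start. A promoter was found for 35 of the 43 members. The letters CACGTG, the E-box that Myc and its partner Max are known to bind and a palindrome that reads the same on both strands, stood in 6 of the 35 (17.1%: Imp4, Utp14b, Utp18, Utp20, Nop2 and Pes1), against 10.3% of the 9643 tested genes with a promoter and 7.24% of all 27025 promoters. The letters CCGGAA on either strand, the core bound by ETS factors, stood in 14 (40%), against 28.7% of tested genes. CCAAT on either strand stood in 15 (42.9%, against 39.0%), and GGGCGG on either strand, the Sp1 box, in 22 (62.9%, against 64.0%). GCATGCGC, a half-site of NRF1, on either strand stood in 0 of 35 (against 5.53% of tested genes), and AAGATGG, the YY1 core, in 1 (2.86%, against 7.49%). These are matches of letters in a window, not measured binding. In Imp4, Utp14b, Utp18 and Nop2 the box lay before the RefSeq start. For Utp14b, GENCODE places the start further upstream, so that its RefSeq window lies inside the gene, and it is not printed. The other 3 are printed to show where the box lies in a promoter of this group. Each line gives the 250 bases before the RefSeq start in the direction of transcription, with CACGTG and CCGGAA (or its reverse TTCCGG) in capitals. They lie at chr1:34439579-34439828 on the plus strand (Imp4), chr11:93885767-93886016 on the minus strand (Utp18) and chr6:125131633-125131882 on the plus strand (Nop2).
Imp4: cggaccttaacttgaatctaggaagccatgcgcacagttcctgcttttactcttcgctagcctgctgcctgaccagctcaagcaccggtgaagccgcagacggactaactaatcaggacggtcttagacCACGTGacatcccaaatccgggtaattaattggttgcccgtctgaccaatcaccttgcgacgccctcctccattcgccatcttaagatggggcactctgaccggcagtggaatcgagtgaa
Utp18: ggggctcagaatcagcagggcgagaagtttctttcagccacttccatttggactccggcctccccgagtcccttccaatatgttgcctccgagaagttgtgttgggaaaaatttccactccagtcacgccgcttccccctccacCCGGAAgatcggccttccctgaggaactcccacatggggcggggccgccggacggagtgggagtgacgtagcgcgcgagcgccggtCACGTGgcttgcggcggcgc
Nop2: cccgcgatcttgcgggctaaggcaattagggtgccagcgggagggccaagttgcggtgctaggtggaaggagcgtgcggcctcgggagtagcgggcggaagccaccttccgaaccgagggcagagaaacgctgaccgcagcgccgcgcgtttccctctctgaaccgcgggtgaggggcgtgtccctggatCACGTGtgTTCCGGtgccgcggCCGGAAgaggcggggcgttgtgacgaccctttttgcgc
The box began 121 bases before the RefSeq start in Imp4, 20 in Utp18 and 60 in Nop2. All 3 printed genes fell in both comparisons with Lgr5-enriched cells. Of the other members with the box, Utp20 fell against Lgr5-enriched cells only in goblet-enriched cells and Pes1 only in enterocyte-enriched cells. Utp14b was called in neither. A link between the box and the fold changes was not tested.

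Of the 5 Pol I subunits, 2 fell in goblet-enriched (40%, against 23.6% of all tested genes) and 4 in enterocyte-enriched cells (80%, against 37.6%), both against Lgr5-enriched cells, with median log2 fold changes of -0.60 and -1.17. In goblet-enriched against enterocyte-enriched cells 1 was higher (20%, below the 28.2% of all tested genes; median 0.47). Polr1a encodes the largest, catalytic subunit of the enzyme and lies on chromosome 6 (71909053 to 71984935, mm10). Polr1a was at 13.3, 17.8 and 19.3 TPM in goblet-enriched, 8.58, 10.6 and 14.1 TPM in enterocyte-enriched and 30.9, 37.6 and 42.5 TPM in Lgr5-enriched replicates 1 to 3. Both groups lay wholly below the Lgr5-enriched libraries, while goblet-enriched and enterocyte-enriched values overlapped. Polr1a fell in goblet-enriched against Lgr5-enriched cells by 1.10 on the log2 scale (SE 0.22, limma adjusted p = 0.00496) and in enterocyte-enriched against Lgr5-enriched cells by 1.67 (SE 0.22, adjusted p = 0.000424). Between goblet-enriched and enterocyte-enriched cells it differed by 0.57 (adjusted p = 0.0575), and this was called with the replicate block (adjusted p = 0.00346) and when a library was left out (0.0324 without goblet-enriched replicate 1 or 0.0291 without enterocyte-enriched replicate 3).

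Polr1b, the second-largest subunit, which completes the active site with Polr1a, was at 23.6, 31.6 and 29.5 TPM in goblet-enriched, 8.33, 13.0 and 14.8 TPM in enterocyte-enriched and 37.1, 43.7 and 49.0 TPM in Lgr5-enriched libraries. None of the 3 groups overlapped. Polr1b fell by 1.79 in enterocyte-enriched against Lgr5-enriched cells (SE 0.22, adjusted p = 0.000338) and was 1.19 higher in goblet-enriched than in enterocyte-enriched cells (SE 0.22, adjusted p = 0.00238). Its goblet-enriched minus Lgr5-enriched value of -0.60 missed the threshold (SE 0.22, adjusted p = 0.0587), but passed it with the replicate block (adjusted p = 0.00623) and without the library labelled enterocyte-enriched replicate 1 (0.0233). Polr1e, a subunit particular to Pol I and the member with the lowest mean level, was at 5.70, 7.34 and 7.60 TPM in goblet-enriched, 3.95, 4.32 and 5.90 TPM in enterocyte-enriched and 13.1, 11.2 and 11.0 TPM in Lgr5-enriched libraries. Its goblet-enriched and enterocyte-enriched values overlapped, and both lay below the Lgr5-enriched ones. It fell by 0.70 in goblet-enriched (SE 0.19, adjusted p = 0.0211) and by 1.17 in enterocyte-enriched cells (SE 0.19, adjusted p = 0.00116), both against Lgr5-enriched cells. The first call was lost without goblet-enriched replicate 1 (adjusted p = 0.0531), Lgr5-enriched replicate 1 (0.0564) or Lgr5-enriched replicate 3 (0.0532), with quantile normalization (0.0917) and with median-of-ratios scaling (0.0792).

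The subunits that Pol I shares with RNA polymerase III had the smallest fold changes of the 5. Polr1c had log2 fold changes of -0.39 in goblet-enriched (not called, adjusted p = 0.0633) and -0.43 in enterocyte-enriched cells (adjusted p = 0.0343), both against Lgr5-enriched cells. The goblet-enriched value was called with the replicate block (adjusted p = 0.0149) and without the library labelled enterocyte-enriched replicate 1 (0.0356). The enterocyte-enriched call was lost in several of the alternatives. Among them were the removal of that library (adjusted p = 0.109), enterocyte-enriched replicate 2 (0.0724), Lgr5-enriched replicate 2 (0.101) or Lgr5-enriched replicate 3 (0.0958). Median-of-ratios scaling was another (log2 fold change -0.02, adjusted p = 0.910). For Polr1d they were -0.30 (adjusted p = 0.0960) and -0.27 (adjusted p = 0.113). Polr1d was at 126, 147 and 124 TPM in goblet-enriched, 119, 138 and 151 TPM in enterocyte-enriched and 175, 160 and 154 TPM in Lgr5-enriched libraries, and its Lgr5-enriched values were the higher ones throughout. Summed over the 5 subunits, the level was 260 ± 23.4 TPM in goblet-enriched, 238 ± 35.3 TPM in enterocyte-enriched and 355 ± 7.02 TPM in Lgr5-enriched cells (SD, n = 3 each).

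The UTP and small-subunit processome factors were the most varied role. In goblet-enriched against Lgr5-enriched cells 10 of 17 fell (58.8%, against 23.6% of all tested genes) and 1 rose (median log2 fold change -0.56). In enterocyte-enriched against Lgr5-enriched cells 12 fell (70.6%, against 37.6%; median -1.002), and in goblet-enriched against enterocyte-enriched cells 9 were higher (52.9%, against 28.2%) and 1 was lower (median 0.58). The 4 members called in no comparison were Polr1d and 3 of this role: Rrp36, Utp14b and Utp23. With the replicate block, Rrp36 was called lower in goblet-enriched against Lgr5-enriched cells (adjusted p = 0.0323), and Utp23 lower in enterocyte-enriched against Lgr5-enriched (0.0101) and higher in goblet-enriched against enterocyte-enriched cells (0.0145). The role's summed level was 788 ± 66.2 TPM in goblet-enriched, 598 ± 98.2 TPM in enterocyte-enriched and 953 ± 34.4 TPM in Lgr5-enriched cells over the 17 (SD, n = 3 each).

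Mphosph10 forms a complex with Imp3 and Imp4 that joins the U3 snoRNP to the ribosomal RNA precursor. Mphosph10 was at 60.8, 33.0 and 27.0 TPM in goblet-enriched, 12.0, 14.0 and 14.9 TPM in enterocyte-enriched and 68.0, 41.8 and 41.3 TPM in Lgr5-enriched libraries. Goblet-enriched replicate 1 and Lgr5-enriched replicate 1 were each far above the rest of their groups, and these 2 groups overlapped, whereas all enterocyte-enriched values lay below both. It fell by 1.78 in enterocyte-enriched against Lgr5-enriched cells (SE 0.30, adjusted p = 0.00130) and was 1.42 higher in goblet-enriched than in enterocyte-enriched cells (SE 0.30, adjusted p = 0.00485). Goblet-enriched minus Lgr5-enriched was -0.36 (SE 0.30, adjusted p = 0.369), and it was called without replicate 1 of all populations (adjusted p = 0.0306). Of its partners, Imp3 had a log2 fold change of -0.02 in goblet-enriched against Lgr5-enriched cells (adjusted p = 0.926) and fell by 0.70 in enterocyte-enriched against Lgr5-enriched cells (adjusted p = 0.00525, and 0.110 with median-of-ratios scaling). Imp4 fell in both, by 0.69 in goblet-enriched (adjusted p = 0.00315) and by 0.77 in enterocyte-enriched cells (adjusted p = 0.00103).

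Utp20, a very large scaffold protein of the processome in yeast, went against the common order. Utp20 (chromosome 10, 88746607 to 88826804) was at 15.9, 25.4 and 22.4 TPM in goblet-enriched, 53.3, 52.2 and 62.2 TPM in enterocyte-enriched and 59.0, 77.7 and 83.0 TPM in Lgr5-enriched libraries. All 3 goblet-enriched values lay below every other library, and the enterocyte-enriched and Lgr5-enriched values overlapped. It fell by 1.75 in goblet-enriched against Lgr5-enriched cells (SE 0.20, adjusted p = 0.000284), the largest fall of any member in that comparison, and by 1.37 in goblet-enriched against enterocyte-enriched cells (SE 0.20, adjusted p = 0.000631). In TPM, its Lgr5-enriched mean was 3.45 times the goblet-enriched mean. Enterocyte-enriched minus Lgr5-enriched was -0.37 (SE 0.20, adjusted p = 0.141), and passed the threshold with the replicate block (adjusted p = 0.0435) and without replicate 1 of all populations (0.0181).

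Utp11l (now named Utp11, chromosome 4, 124678160 to 124693600), a component of the U3-bound processome, was the only member called higher in goblet-enriched than in Lgr5-enriched cells. It was at 255, 167 and 177 TPM in goblet-enriched, 76.8, 110 and 123 TPM in enterocyte-enriched and 132, 109 and 125 TPM in Lgr5-enriched libraries. Every goblet-enriched value lay above every other library, and the enterocyte-enriched and Lgr5-enriched values overlapped. It rose by 0.68 in goblet-enriched against Lgr5-enriched cells (SE 0.21, adjusted p = 0.0342) and by 0.94 in goblet-enriched against enterocyte-enriched cells (SE 0.21, adjusted p = 0.00651), while enterocyte-enriched minus Lgr5-enriched was -0.26 (adjusted p = 0.327). The first call was lost without goblet-enriched replicate 1 (adjusted p = 0.0912), goblet-enriched replicate 3 (0.0539), Lgr5-enriched replicate 2 (0.0998) or Lgr5-enriched replicate 3 (0.0828), and with no filter on low values (0.0514).

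Utp14a and Utp14b are a pair of paralogs: in the mouse, Utp14b is an intronless copy of the X-linked Utp14a that is known for its need in male germ cells. Utp14a was at 29.0, 26.7 and 25.0 TPM in goblet-enriched, 11.0, 15.4 and 19.8 TPM in enterocyte-enriched and 55.1, 44.3 and 52.2 TPM in Lgr5-enriched libraries, with no overlap between groups. It fell by 0.88 in goblet-enriched (SE 0.20, adjusted p = 0.00931) and by 1.68 in enterocyte-enriched cells (SE 0.20, adjusted p = 0.000309), both against Lgr5-enriched cells. Utp14b was at 76.4, 94.4 and 49.6 TPM in goblet-enriched, 48.9, 152 and 81.7 TPM in enterocyte-enriched and 43.7, 87.7 and 55.1 TPM in Lgr5-enriched libraries. All groups overlapped, and no comparison was called (adjusted p = 0.670, 0.341 and 0.645). Utp14b (chromosome 1, 78658038 to 78671512) lies inside Acsl3 on the same strand, which was at 136 to 230, 83.5 to 196 and 126 to 148 TPM in the 3 populations, so its value is uncertain.

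**Figure D4:**
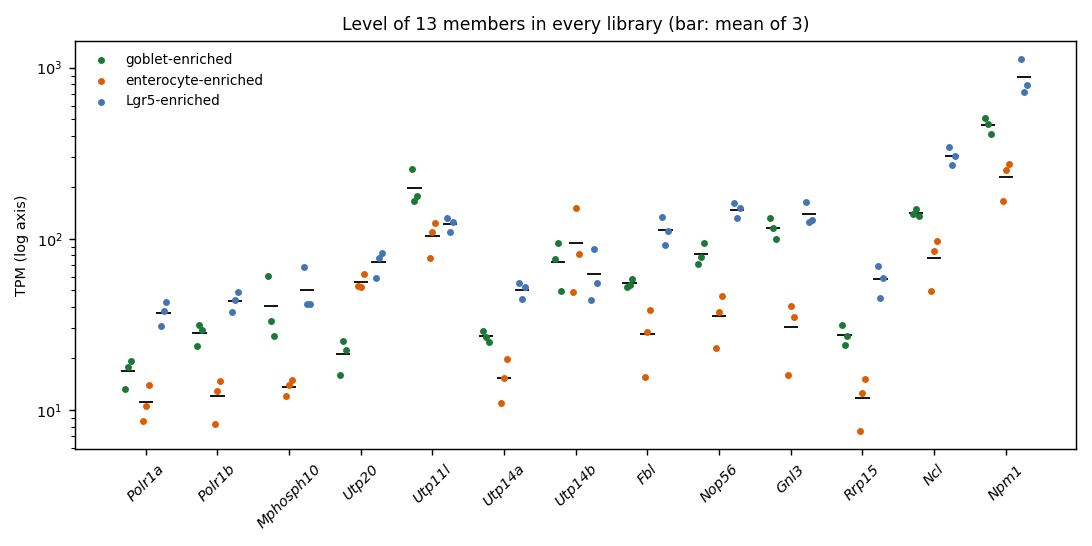
TPM (log axis) of 13 members in every library, with a bar at the mean of the 3 libraries, for goblet-enriched, enterocyte-enriched and Lgr5-enriched cells from left to right. Npm1 is highest throughout, reaching 1119 TPM in Lgr5-enriched replicate 1, and Utp20 is the member shown whose goblet-enriched values lie far below the enterocyte-enriched ones.

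The snoRNP proteins fell in enterocyte-enriched against Lgr5-enriched cells for all 8 members (100%, against 37.6% of all tested genes), with a median log2 fold change of -1.85 and a range of -2.08 to -1.27. In goblet-enriched against Lgr5-enriched cells 5 of 8 fell (62.5%, against 23.6%; median -0.77), and in goblet-enriched against enterocyte-enriched cells 7 of 8 were higher (87.5%, against 28.2%; median 1.05). Their summed level was 649 ± 23.2 TPM in goblet-enriched, 318 ± 81.7 TPM in enterocyte-enriched and 1028 ± 136 TPM in Lgr5-enriched cells (SD, n = 3 each). The role holds both snoRNP classes, the box C/D proteins that methylate ribosomal RNA and the H/ACA proteins that convert uridine to pseudouridine.

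Fbl, the methyltransferase of the box C/D class (chromosome 7, 28169710 to 28179269), was at 52.5, 53.8 and 58.4 TPM in goblet-enriched, 15.6, 28.6 and 38.6 TPM in enterocyte-enriched and 134, 92.6 and 111 TPM in Lgr5-enriched libraries. The groups did not overlap. Fbl fell by 2.06 in enterocyte-enriched (SE 0.28, adjusted p = 0.000526) and by 1.01 in goblet-enriched cells (SE 0.28, adjusted p = 0.0232), both against Lgr5-enriched cells. The goblet-enriched call was lost without goblet-enriched replicate 1 (adjusted p = 0.0569) or 2 (0.0618), without Lgr5-enriched replicate 1 (0.0654) or 3 (0.0671) and under median-of-ratios scaling (0.0584).

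Nop56 and Nop58 are paralogs that sit side by side in the box C/D particle, and both genes contain snoRNA genes on the same strand. Nop56 was at 71.2, 77.8 and 94.5 TPM in goblet-enriched, 23.2, 37.4 and 46.2 TPM in enterocyte-enriched and 162, 132 and 151 TPM in Lgr5-enriched libraries. It fell by 2.08 in enterocyte-enriched (SE 0.23, adjusted p = 0.000268) and by 0.86 in goblet-enriched cells (SE 0.23, adjusted p = 0.0194), both against Lgr5-enriched cells, and no groups overlapped. Without goblet-enriched replicate 1 or 2 the goblet-enriched call of Nop56 was lost (adjusted p = 0.0559 and 0.0571), as it was without Lgr5-enriched replicate 1 or 3 (0.0518 and 0.0624) and under median-of-ratios scaling (0.0551). Nop58 was at 190, 148 and 130 TPM in goblet-enriched, 50.2, 94.0 and 88.7 TPM in enterocyte-enriched and 258, 212 and 217 TPM in Lgr5-enriched libraries, again without overlap. It fell by 1.59 in enterocyte-enriched against Lgr5-enriched cells (SE 0.24, adjusted p = 0.000809), and its goblet-enriched minus Lgr5-enriched value was -0.57 (SE 0.24, adjusted p = 0.0968, and 0.0246 without the library labelled enterocyte-enriched replicate 1).

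The H/ACA proteins Dkc1 (the pseudouridine synthase), Gar1, Nhp2 and Nop10 all fell in enterocyte-enriched against Lgr5-enriched cells, by 1.92, 1.96, 1.51 and 1.27 on the log2 scale (adjusted p = 0.000111, 0.000239, 0.00114 and 0.00111). In goblet-enriched against Lgr5-enriched cells Dkc1 fell by 1.06 (adjusted p = 0.00109) and Nhp2 by 0.86 (adjusted p = 0.0256). The Nhp2 call was lost without goblet-enriched replicate 1 (adjusted p = 0.0746) or 2 (0.0560), without Lgr5-enriched replicate 1 (0.0643) or 3 (0.0866), without replicate 1 of all populations (0.0638) and with median-of-ratios scaling (0.0710). Nhp2 was 0.65 higher in goblet-enriched than in enterocyte-enriched cells (adjusted p = 0.0567), which was called with the replicate block (0.0179) and without goblet-enriched replicate 1 (0.0366) or enterocyte-enriched replicate 3 (0.0136). Gar1 at -0.44 (adjusted p = 0.131, and 0.0300 without the library labelled enterocyte-enriched replicate 1) and Nop10 at -0.23 (adjusted p = 0.412) were not called there. Dkc1 was at 28.8, 31.7 and 32.9 TPM in goblet-enriched, 14.5, 15.5 and 20.4 TPM in enterocyte-enriched and 71.5, 59.9 and 67.0 TPM in Lgr5-enriched libraries, and no groups overlapped. Nolc1, a nucleolar phosphoprotein that binds both snoRNP classes, fell by 0.69 in goblet-enriched (adjusted p = 0.0114, and 0.0508 without Lgr5-enriched replicate 3) and by 1.77 in enterocyte-enriched cells (adjusted p = 0.000179), both against Lgr5-enriched cells.

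The large-subunit assembly factors fell in enterocyte-enriched against Lgr5-enriched cells for all 11 members (100%, against 37.6% of all tested genes), with a median log2 fold change of -1.41 and a range of -2.25 to -0.63. The call of Bop1, at -0.63 (adjusted p = 0.0364), was lost in 9 of the 19 alternatives. Bop1 was at -0.50 without the library labelled enterocyte-enriched replicate 1 (adjusted p = 0.1202) and at -0.22 with median-of-ratios scaling (0.393), and its call was also lost without enterocyte-enriched replicate 2 (0.0653), Lgr5-enriched replicate 2 (0.0678) or 3 (0.1198), or goblet-enriched replicate 2 (0.0505). In goblet-enriched against Lgr5-enriched cells 7 of 11 fell (63.6%, against 23.6%; median -0.62), and in goblet-enriched against enterocyte-enriched cells 9 of 11 were higher (81.8%, against 28.2%; median 0.71). Summed, they were at 535 ± 12.8 TPM in goblet-enriched, 325 ± 55.8 TPM in enterocyte-enriched and 792 ± 39.8 TPM in Lgr5-enriched cells (SD, n = 3 each). One goblet-enriched call of this role was near the threshold: Rrp8, a methyltransferase of the large ribosomal RNA, fell by 0.47 (adjusted p = 0.0496). This call was lost in 15 of the 19 alternatives, among them the removal of any library except the one labelled enterocyte-enriched replicate 1 (adjusted p = 0.0532 to 0.129), median-of-ratios scaling (-0.25, adjusted p = 0.337) and quantile normalization (-0.20, adjusted p = 0.458).

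Gnl3, the GTPase nucleostemin, known for its high level in stem and dividing cells, was not called between goblet-enriched and Lgr5-enriched cells and was lowest in enterocyte-enriched cells. Gnl3 (chromosome 14, 31012433 to 31019152) was at 133, 115 and 100.1 TPM in goblet-enriched, 16.0, 40.4 and 35.1 TPM in enterocyte-enriched and 164, 125 and 129 TPM in Lgr5-enriched libraries. Goblet-enriched and Lgr5-enriched values overlapped, and every enterocyte-enriched value lay far below both. The goblet-enriched minus Lgr5-enriched log2 fold change was -0.26 (95% interval -0.94 to 0.42, adjusted p = 0.527), an interval that holds the members' median of -0.64. Gnl3 fell by 2.25 in enterocyte-enriched against Lgr5-enriched cells (SE 0.30, adjusted p = 0.000490) and was 1.98 higher in goblet-enriched than in enterocyte-enriched cells (SE 0.30, adjusted p = 0.000914), the largest difference there. Without the library labelled enterocyte-enriched replicate 1, these were -1.85 (adjusted p = 0.000527) and 1.59 (adjusted p = 0.000488, still the largest). With all libraries Gnl3 had the largest fall of any member in enterocyte-enriched against Lgr5-enriched cells on the log2(TPM + 1) scale, but without that library Rrp1b (-2.22), Rrp15 (-1.97) and Rrs1 (-1.90) fell further.

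Rrp15, a pre-large-subunit factor (chromosome 1, 186720978 to 186749358), was at 31.5, 23.9 and 27.0 TPM in goblet-enriched, 7.55, 12.6 and 15.2 TPM in enterocyte-enriched and 69.5, 45.3 and 59.0 TPM in Lgr5-enriched libraries. The groups did not overlap. Rrp15 fell by 1.04 in goblet-enriched (SE 0.25, adjusted p = 0.0132) and by 2.23 in enterocyte-enriched cells (SE 0.25, adjusted p = 0.000274), both against Lgr5-enriched cells. The partners Pes1, Bop1 and Wdr12 form the PeBoW complex, which is needed to mature the large-subunit RNA. Against Lgr5-enriched cells their log2 fold changes were -0.46, -0.62 and -0.99 in goblet-enriched cells (adjusted p = 0.0503, 0.0514 and 0.00694) and -1.19, -0.63 and -1.60 in enterocyte-enriched cells (adjusted p = 0.000468, 0.0364 and 0.000445). In goblet-enriched cells Wdr12 was called, and Pes1 and Bop1 were called with the replicate block (adjusted p = 0.0393 and 0.00450) and without the library labelled enterocyte-enriched replicate 1 (0.0258 and 0.0474). Pes1 was also called without enterocyte-enriched replicate 3 (0.0267) and Bop1 without goblet-enriched replicate 3 (0.0264).

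The paralogs Rrp1 and Rrp1b differed in level and in the size of their change. Rrp1b was at 4.87, 6.57 and 7.47 TPM in goblet-enriched, 3.48, 2.60 and 4.32 TPM in enterocyte-enriched and 20.3, 17.1 and 21.2 TPM in Lgr5-enriched libraries, with no overlap. It fell by 1.50 in goblet-enriched (SE 0.21, adjusted p = 0.000975) and by 2.21 in enterocyte-enriched cells (SE 0.21, adjusted p = 0.000187), both against Lgr5-enriched cells. In TPM, its Lgr5-enriched mean was 3.10 times the goblet-enriched and 5.63 times the enterocyte-enriched mean. It was 0.71 higher in goblet-enriched than in enterocyte-enriched cells (adjusted p = 0.0230), a call lost without goblet-enriched replicate 2 (adjusted p = 0.0671) or 3 (0.0787), without the library labelled enterocyte-enriched replicate 1 (0.0509) or replicate 2 of that population (0.0834), with quantile normalization (0.0547) and with median-of-ratios scaling (0.0564). Rrp1 was at 135, 161 and 156 TPM in goblet-enriched, 97.1, 125 and 133 TPM in enterocyte-enriched and 176, 201 and 219 TPM in Lgr5-enriched libraries, with no overlap. It fell by 0.75 in enterocyte-enriched against Lgr5-enriched cells (SE 0.15, adjusted p = 0.00329), and goblet-enriched minus Lgr5-enriched was -0.40 (SE 0.15, adjusted p = 0.0697, but 0.00902 with the replicate block and 0.0376 without the library labelled enterocyte-enriched replicate 1). Goblet-enriched minus enterocyte-enriched was 0.35 (adjusted p = 0.0857, and 0.0119 with the replicate block). The difference between the paralogs was not tested.

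The nucleolar chaperones Ncl and Npm1 summed to 605 ± 51.7 TPM in goblet-enriched, 308 ± 81.3 TPM in enterocyte-enriched and 1185 ± 245 TPM in Lgr5-enriched cells (SD, n = 3 each). Npm1, which binds and exports ribosomal particles (chromosome 11, 33152287 to 33163206), was the member with the highest mean level. Npm1 was at 508, 469.9 and 412 TPM in goblet-enriched, 167, 251 and 275 TPM in enterocyte-enriched and 1119, 723 and 796 TPM in Lgr5-enriched libraries. Lgr5-enriched replicate 1 lay above its group, and no groups overlapped. Npm1 fell by 0.90 in goblet-enriched (SE 0.22, adjusted p = 0.0141, and 0.0515 under median-of-ratios scaling) and by 1.93 in enterocyte-enriched cells (SE 0.22, adjusted p = 0.000287), both against Lgr5-enriched cells. Ncl, which binds the nascent ribosomal RNA precursor (chromosome 1, 86344719 to 86359400), was at 139, 150 and 135 TPM in goblet-enriched, 49.4, 84.8 and 96.6 TPM in enterocyte-enriched and 342, 271 and 305 TPM in Lgr5-enriched libraries, also without overlap. Ncl fell by 1.10 in goblet-enriched (SE 0.22, adjusted p = 0.00579) and by 2.03 in enterocyte-enriched cells (SE 0.22, adjusted p = 0.000260), both against Lgr5-enriched cells.

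Other factors of the pathway, which the rule did not name, were also counted. Of 40 other small-subunit factors, 18 fell in goblet-enriched (45%, against 23.6% of all tested genes) and 37 in enterocyte-enriched cells (92.5%, against 37.6%), both against Lgr5-enriched cells, with median log2 fold changes of -0.51 and -1.18. In goblet-enriched against enterocyte-enriched cells 27 were higher (67.5%, against 28.2%). Among them Rcl1, in yeast a processome endonuclease, fell by 1.36 in goblet-enriched against Lgr5-enriched cells (adjusted p = 0.00619), and Nob1, the nuclease that forms the end of the small-subunit RNA, by 1.32 (adjusted p = 0.000619). Surf6, a nucleolar protein, was the only one of the 40 that rose in goblet-enriched against Lgr5-enriched cells, at 69.6, 66.9 and 61.7 TPM in goblet-enriched, 21.3, 31.3 and 29.4 TPM in enterocyte-enriched and 41.1, 48.0 and 43.5 TPM in Lgr5-enriched libraries. Its goblet-enriched values lay above all others. Of 39 other large-subunit factors, 22 fell in goblet-enriched (56.4%) and 37 in enterocyte-enriched cells (94.9%; medians -0.54 and -1.27), and 27 were higher in goblet-enriched than in enterocyte-enriched cells (69.2%). Mdn1, the giant ATPase that strips factors from pre-large subunits, fell by 1.28 in goblet-enriched (adjusted p = 0.00123) and by 1.89 in enterocyte-enriched cells (adjusted p = 0.000202), both against Lgr5-enriched cells.

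Of 12 exonuclease genes that trim ribosomal RNA, 8 fell in goblet-enriched (66.7%) and 10 in enterocyte-enriched cells (83.3%), both against Lgr5-enriched cells (medians -0.69 and -0.95), and 4 were higher in goblet-enriched than in enterocyte-enriched cells (33.3%, against 28.2%; median 0.29, against 0.20 over all tested genes). The exosome genes Exosc8 and Exosc2 fell by 1.23 and 1.13 in goblet-enriched against Lgr5-enriched cells (adjusted p = 0.00299 and 0.00268), and the exosome nuclease Dis3 by 1.12 (adjusted p = 0.00524). The other Pol I subunits and initiation factors numbered 10, of which 3 fell in goblet-enriched against Lgr5-enriched cells (30%, against 23.6% of all tested genes; median -0.22, against -0.26), close to all tested genes. In enterocyte-enriched against Lgr5-enriched cells 8 of the 10 fell (80%, against 37.6%; median -0.79). Those 3 were Cd3eap (a Pol I subunit), Taf1d and Ubtf (Pol I promoter factors), with log2 fold changes of -1.03, -0.89 and -0.47 (adjusted p = 0.0270, 0.0302 and 0.00995).

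**Figure D5:**
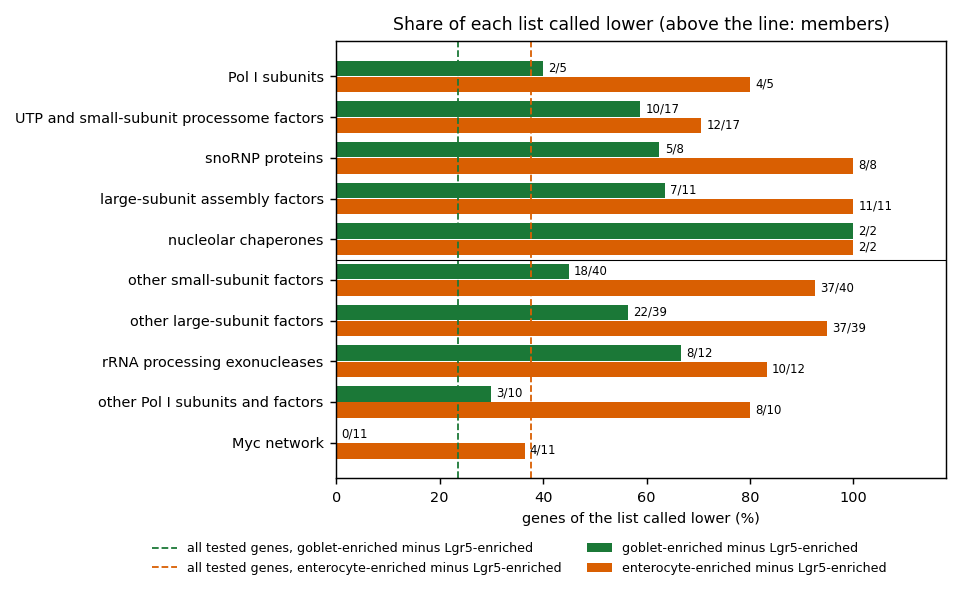
Share of each gene list called lower (horizontal axis, percent) in goblet-enriched minus Lgr5-enriched and enterocyte-enriched minus Lgr5-enriched, for the roles of the members and for the lists outside the rule; dashed lines mark all tested genes at 23.6% and 37.6%. The share called lower is larger in the comparison of enterocyte-enriched cells for all lists but the nucleolar chaperones, which are at 100% in both.

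The Myc network, whose transcription factors are known to act on genes of this pathway, moved in both directions. Of 11 genes, 2 rose in goblet-enriched against Lgr5-enriched cells (18.2%, against 10.7% of all tested genes) and the other 9 were not called (median log2 fold change 0.08). In enterocyte-enriched against Lgr5-enriched cells 4 rose (36.4%, against 12.0%) and 4 fell (36.4%, about the 37.6% of all tested genes). Myc itself was at 74.6, 66.1 and 47.8 TPM in goblet-enriched, 14.3, 27.8 and 23.7 TPM in enterocyte-enriched and 108, 72.7 and 92.3 TPM in Lgr5-enriched libraries. Goblet-enriched and Lgr5-enriched values overlapped, and all enterocyte-enriched values lay below both. Myc fell by 2.03 in enterocyte-enriched against Lgr5-enriched cells (adjusted p = 0.000434), was 1.50 higher in goblet-enriched than in enterocyte-enriched cells (adjusted p = 0.00201), and was not called in goblet-enriched against Lgr5-enriched cells (-0.53, adjusted p = 0.145). Mxd1, which competes with Myc for Max and represses its targets, was at 32.4, 22.4 and 26.1 TPM in goblet-enriched, 370.3, 214 and 160.3 TPM in enterocyte-enriched and 22.2, 26.8 and 18.4 TPM in Lgr5-enriched libraries. Every enterocyte-enriched value was several times above all others, and Mxd1 rose there by 3.34 against Lgr5-enriched cells (adjusted p = 0.000142). In goblet-enriched against Lgr5-enriched cells the 2 that rose were Mxd4, another such competitor, and Mlx, by 0.93 and 0.65 (adjusted p = 0.00213 and 0.00683).

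Markers of cell division moved with the members. Their summed level was 500 to 683 TPM in goblet-enriched, 227 to 387 TPM in enterocyte-enriched and 972 to 1443 TPM in Lgr5-enriched libraries. Of 8 markers, 5 fell in goblet-enriched (62.5%, against 23.6% of all tested genes) and 8 in enterocyte-enriched cells (100%, against 37.6%), both against Lgr5-enriched cells. In goblet-enriched against enterocyte-enriched cells 7 were higher (87.5%, against 28.2%). Mki67, present only in dividing cells, was at 121, 112 and 124 TPM in goblet-enriched, 35.3, 31.7 and 52.9 TPM in enterocyte-enriched and 221, 195 and 226 TPM in Lgr5-enriched libraries, with no overlap. The part of these and the other cell type markers in the result was not tested. Rn45s itself was not called in any comparison: it was at 2356, 5181 and 3765 TPM in goblet-enriched, 3499.8, 6009 and 5136 TPM in enterocyte-enriched and 49046, 4499 and 4717 TPM in Lgr5-enriched libraries. Apart from Lgr5-enriched replicate 1 the 3 populations overlapped, and these libraries of polyadenylated RNA are not made to measure a Pol I product (goblet-enriched minus Lgr5-enriched -1.50, SE 0.81, adjusted p = 0.179).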

How the data were processed

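Messenger RNA was sequenced from 9 libraries, 3 per population. Per the submitters' processing notes, the authors used Cufflinks and the mm10 build; the aligner, the annotation and any use of strand were not given in the sources used here. The authors deposited 1 table on a log2 scale, which holds log2(TPM) from 1 TPM up and TPM minus 1 below it: after back-transformation each column sums to 1000000, and 0 per-sample columns were unused. TPM fixes the total of every library, so abundant transcripts lower the share of all others. Reads were recovered as the smallest whole numbers the values allow (99.95% of genes above 0, tolerance 1e-06), so depths of 11.2 to 26.8 M (times 1000000) are lower bounds, and a single read per kb of transcript equals 0.0958 to 0.208 TPM.

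The test was limma 3.58.1 (R 4.3.3) on log2(TPM + 1) for the 12888 genes that reached 1 TPM in 3 or more libraries (lmFit, eBayes with a trend, 1 mean per population, all 9 libraries, two-sided), with Benjamini-Hochberg adjustment and a threshold of 0.05. Fold changes are on that scale, which understates low genes. The p-values measure the spread between these libraries. Alternatives were pseudocounts of 0.1 and 5, no filter, a filter of 5 TPM, median-of-ratios scaling, quantile normalization, rescaling without the 100 most abundant genes, a fit to the 6 libraries compared, a replicate block and leaving out libraries. The test was checked on simulated data. Tables and figures were made with Python 3.11.15, pandas 2.3.3, numpy 2.4.6 and matplotlib 3.10.9.

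Replicate numbers pair the libraries: deviations from the population means of same-numbered libraries correlated at 0.19 to 0.60 (9 pairs), and of others at -0.52 to 0.17 (18 pairs). The main fit did not use this pairing, and only the replicate block did. The library labelled enterocyte-enriched replicate 1 differs in sex transcripts from the others of its number, so at least that number is not 1 animal.

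Members and lists were chosen with earlier results of these data known. Values in every library are given for the 2 members per role with the largest fold change among those called against Lgr5-enriched cells, members called against the majority, the members with the highest and lowest mean, and paralog pairs. Other library values (Polr1d, Dkc1, Surf6, Myc, Mxd1, Mki67, Rn45s) were chosen after they were seen. Of the lists outside the rule, 112 of 117 symbols were in the table. Positions are from GENCODE M21 and promoters from RefSeq, both of mm10. Overlapping genes are uncertain without stated strand use: 19 members are overlapped by a gene on the other strand, and 5 (Dkc1, Nop56, Nop58, Gnl3 and Ncl) hold snoRNA genes.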

Additional observations from a re-analysis of the deposited data

How the results depend on the processing

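No member changed direction while called, and of the called members 14 of 27 (goblet-enriched minus Lgr5-enriched), 34 of 37 (enterocyte-enriched minus Lgr5-enriched) and 24 of 29 (goblet-enriched minus enterocyte-enriched) were called under all 19 alternatives. The goblet-enriched against Lgr5-enriched result depended most on the processing: 26 members fell, against 15 under median-of-ratios scaling and 15 to 34 with 1 library left out. The shares of all tested genes that fell were 23.6%, 12% and 12.2% to 25%. The number of members that rose there was 1, against 0 with no filter on low values and 0 to 1 with 1 library left out. The shares of all tested genes that rose were 10.7%, 7.53% and 8.1% to 11%. In enterocyte-enriched against Lgr5-enriched cells 35 to 37 members fell with 1 library left out (29.6% to 41.1% of all tested genes), and 0 rose in each case (9.36% to 13%). In goblet-enriched against enterocyte-enriched cells 24 to 31 members were higher with 1 library left out (21.8% to 29.1% of all tested genes), and 1 was lower (12.8% to 17.1%). Median-of-ratios scaling gave 2 lower (21.3% of all tested genes), the second being Rrp36. The cause of these changes was not tested. The replicate block, which follows the pairing, raised the calls of members and of all tested genes. With it, 33 members fell and 1 rose in goblet-enriched against Lgr5-enriched cells (35.4% and 13.9% of all tested genes). In enterocyte-enriched against Lgr5-enriched cells 39 members fell and 0 rose (45.3% and 15.9% of all tested genes). In goblet-enriched against enterocyte-enriched cells 32 members were higher and 1 lower (36.3% and 20.6% of all tested genes). Over all tested genes, 3039 fell in goblet-enriched against Lgr5-enriched cells, against 1545 under median-of-ratios scaling, 1941 under quantile normalization, 4563 with the block and 1557 without Lgr5-enriched replicate 3. In enterocyte-enriched against Lgr5-enriched cells 4847 fell and 1549 rose, against 2522 and 3028 under median-of-ratios scaling and 2887 and 2424 under quantile normalization. Median-of-ratios scaling moved the median of all genes by 0.21, 0.37 and -0.17 in the 3 comparisons. Under it, the fitted sign changed for members that were not called: Imp3 and Utp23 in the first comparison, Polr1d, Rrp36, Utp11l and Utp20 in the second, and Bop1, Imp4, Nop9, Polr1c and Rrp9 in the third. Relative to the median of all genes, the members' median was -0.53 to -0.30, -1.26 to -0.89 and 0.39 to 0.66 over the alternatives (-0.38, -1.05 and 0.51 as reported).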
